A study of Mus musculus with 8 samples.

Results

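The Polycomb repressive complex genes examined here were Ezh1, Ezh2, Eed, Suz12, Rnf2, Bmi1, Cbx2, Cbx7 and Cbx8, 9 genes chosen by name. All 22 probes that the array design gave to these names were taken, out of 56605 probes that were not controls, and each gene had at least 1 probe. For 21 of the 22, at least 3 of 4 arrays in each group had a value, as for 28649 probes of the whole array, and these were tested. Expression was measured on 8 one-colour Agilent arrays, 1 per culture of C2C12, a mouse myoblast cell line, all at passage 10 and all kept proliferating. In 4 cultures the long non-coding RNA Pvt1 was silenced with antisense LNA GapmeRs, short oligonucleotides that pair with an RNA and direct its cleavage, delivered with Lipofectamine. The 4 negative control cultures received a control GapmeR with the same reagent, so transfection was common to both groups. The labels number the biological replicates 1 to 4 in each group and do not say which of the named Pvt1 GapmeRs, or both, a given culture received.

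Polycomb proteins keep genes silent through chromatin. Polycomb repressive complex 2 (PRC2) methylates a lysine of histone H3 through its catalytic subunit Ezh2 or Ezh1, with Eed and Suz12 as core partners, and Polycomb repressive complex 1 (PRC1) ubiquitinates histone H2A through Rnf2 (Ring1B), with Bmi1 as a partner and Cbx proteins as readers of the methyl mark. In skeletal muscle, Ezh2 is known for holding muscle genes silent in proliferating myoblasts, while Ezh1 is the paralog associated with cells that have left the cell cycle.

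The oligonucleotides that carry the results are given 5′ to 3′. The GapmeRs are shown because they define the silenced group. The tested probes of Ezh1, Ezh2 and Suz12 are shown because the results for these genes depend on which probe was read. Probes of Ezh2 and Suz12 are whole except the most 3′ probe of each, and for the others a stretch of 30 bases is given. Capitals mark a polyadenylation signal.
GapmeR Pvt1_1: accgtagtagagttaa
GapmeR Pvt1_3: agtcaacgcttcacat
Ezh1 A_55_P2731246: gaaagtaatgtaagccttcagggtggggtt
Ezh1 A_55_P2017090: cccagcatatattaagtaagctggataaag
Ezh1 A_55_P2082869: gacctcttatctAATAAAgtgttaagactc
Ezh2 A_55_P2619337: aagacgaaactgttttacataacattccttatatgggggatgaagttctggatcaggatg
Ezh2 A_55_P2619332: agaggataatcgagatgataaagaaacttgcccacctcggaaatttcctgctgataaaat
Ezh2 A_55_P2619322: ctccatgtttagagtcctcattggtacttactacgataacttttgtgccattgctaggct
Ezh2 A_51_P248067: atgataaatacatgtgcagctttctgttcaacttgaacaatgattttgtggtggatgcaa
Ezh2 A_55_P2041397: tgcaataatgcagtatggtacatttttcaa
Suz12 A_52_P302203: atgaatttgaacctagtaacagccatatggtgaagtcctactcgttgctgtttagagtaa
Suz12 A_51_P214796: tgcttaaaagaaggctagcattgtttgcac

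Of the member probes, 1 held a polyadenylation signal (AATAAA or ATTAAA) on the strand of the probe sequence, the Ezh1 probe A_55_P2082869, whereas 13.4% of all probes did. On the other strand 3 member probes and 6.36% of all probes held these letters. On mouse build mm9 the 5 Ezh2 probes lay on chromosome 6 along 1 transcript (NM_007971) on the minus strand, from the most 5′ at chr6:47506086-47506145 to the most 3′ at chr6:47480307-47480366. The annotated spans of A_55_P2619332 (chr6:47502445-47504139) and A_51_P248067 (chr6:47482047-47482942) were longer than the probes, as for a probe placed across an exon junction. Whether a probe lies in coding sequence or in a UTR was not analysed here.

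Pvt1 was read first, since it was the target. Its brightest probe changed by -2.86 on the log2 scale (SE 0.32, n = 4 against 4, limma adjusted p 0.000682), and the groups did not overlap. Over all 28649 tested probes, 4.79% were called higher and 18.4% lower in silenced cells, where a call is a limma adjusted p under 0.05 over all tested probes. The median change of all tested probes was -0.19 with dim spots masked before quantile normalization, 0.02 with masking and cyclic loess, and 0.01 both with quantile normalization without masking and with the series table of the authors, which is also quantile normalized. It was -0.02 without silenced replicate 4, and the calls were then 3654 higher and 5104 lower. The split of calls was 1373 higher and 5269 lower with masking and quantiles, 5416 and 5258 with loess, 4990 and 4787 without masking, and 4509 and 4461 with the series table, so changes relative to the median are given for the called probes that stood well above background in both groups. The share of spots positive and significant was 51.6% on silenced replicate 4 and between 58.8% and 62.5% on the other 7 arrays. All arrays lay on 1 slide, with control replicates 1 to 3 and silenced replicate 1 in the upper row and the other 4 arrays in the lower row.

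Markers of other cell types were read for the same arrays. Of 6 myoblast markers Myod1 (-1.95), Des (-1.35) and Cdh15 (-0.86) fell, Itga7 (-0.18) and Chrna1 (-0.30) were not called, and Myf5 never stood well above background. Of 6 hepatocyte markers, Alb, Fgb and Mup1 were well above background on 0 control and 4 silenced arrays and Ttr on 0 and 3, Apoa1 on none, and Apoa2 on all. The summed linear signal of this list was 809 to 1641 in controls and 3563 to 4570 in silenced cells. Of 4 leukocyte markers Cd68 rose by 1.84, Ptprc (1.26) and Cd3e (0.09) were not called, Lyz2 never stood well above background, and the list summed to 1693 to 1839 on control and 4052 to 6923 in silenced cells. Of the 4 endothelial markers (Pecam1, Cdh5, Kdr and Tek) 0 stood well above background. The part of these markers in the Polycomb results was not tested. In RNA from whole cultures, fewer cells of a type and less RNA per cell cannot be told apart.

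Across the 21 tested member probes, Pvt1 silencing was followed by a call in 7, 1 higher and 6 lower, and the remaining 14 were not called. That was 33.3% of the member probes, beside the 4.79% called higher and 18.4% called lower among all probes. The median change of the member probes was -0.50, within a range of -1.70 to 1.41, or -0.31 relative to the median of all probes. It was -0.30 with loess, -0.27 with normexp, -0.26 without masking, -0.25 with the series table and -0.20 without silenced replicate 4, where the medians of all probes were 0.02, -0.11, 0.01, 0.01 and -0.02. All silenced values lay above all control values for 1 member probe and below them for 5, against 5.61% and 22.6% of all tested probes. The rest, 15 probes, overlapped between groups. The 11 probes of PRC2 genes held 1 higher and 4 lower call, and the 10 probes of PRC1 genes 0 and 2. Of the 18 member probes well above background on at least 1 array of each group, 1 was called higher and 4 lower.

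**Figure D1:**
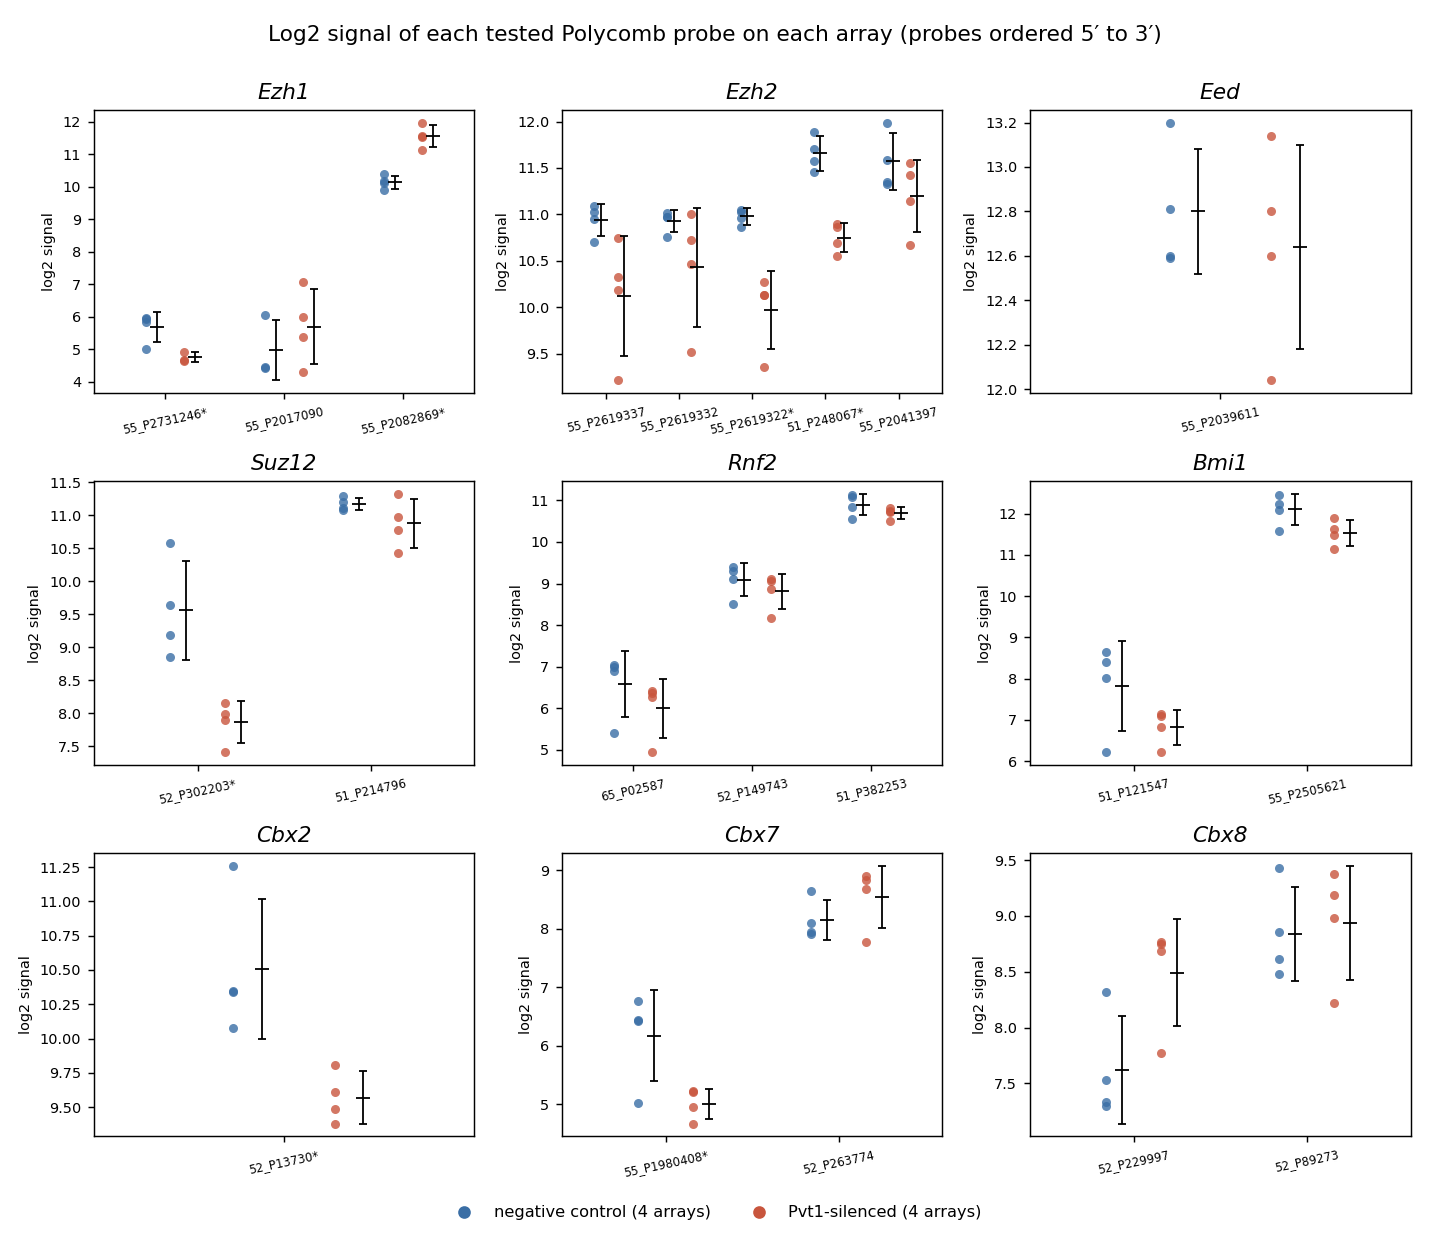
Log2 signal (y axis) of the 21 tested member probes on each array, with 1 panel per gene, probes in order from 5′ to 3′, and control arrays in blue and silenced arrays in red. Points are arrays, bars are the mean ± SD of a group, an asterisk marks a called probe, and the y axes differ between panels, so that levels of different probes are not to be compared. The Ezh1 probe A_55_P2082869 is the only one whose silenced arrays (11.14 to 11.97) all lie above the control arrays (9.91 to 10.39).

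With each gene taken by its brightest probe, 1 of the 9 genes was called higher, Ezh1, and 1 lower, Cbx2, while 7 were not called. The split depended on the processing. It was 2 higher (Ezh1 and Cbx7) and 1 lower (Cbx2) with loess, and 2 higher (Ezh1 and Cbx7) and 0 lower with the series table and without masking of dim spots. With the mean of all tested probes of a gene it was 0 higher and 2 lower, Cbx2 (-0.94, limma adjusted p 0.0404) and Suz12 (-0.99, limma adjusted p 0.0297). Over 16086 named genes taken in the same way 6.45% were called higher and 13.4% lower. The median over the 9 genes was -0.20 and that over all genes -0.06. Cbx2 kept its call under some alternatives only, as described with its values below. When the row of the slide was blocked, 2 member probes were called, Ezh1 A_55_P2082869 and Suz12 A_52_P302203.

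Among the catalytic subunits, Ezh1 carried the only member probe called higher with masking and quantile normalization of all 8 arrays. With loess, with the series table, without masking and without silenced replicate 4, Cbx7 A_52_P263774 and Cbx8 A_52_P229997 were called higher as well, and with the 75th percentile and without control replicate 3 the Cbx8 probe alone was added. Its 3′ probe, A_55_P2082869 (NM_007970, chr11:101052430-101052489, minus strand), had a log2 signal of 9.91, 10.16, 10.39 and 10.11 on control replicates 1 to 4. On silenced replicates 1 to 4 it was 11.57, 11.54, 11.97 and 11.14. Every silenced array thus lay above every control array, and the dimmest silenced array, replicate 4, was the lowest of its group. The means were 10.14 ± 0.20 and 11.55 ± 0.34 (SD, n = 4 each), a change of 1.41 (SE 0.23, 95% interval 0.91 to 1.92, limma adjusted p 0.00283), equal to 2.66-fold. Relative to the median of all probes the change was 1.61. It was 1.42 within the upper row of the slide and 1.44 within the lower row, and 1.43 with the row as a block (limma adjusted p 0.0195). Leaving out any single array gave 1.25 to 1.57. The probe was called in 18 of 20 alternatives. The exceptions were the methods' t-test with Bonferroni adjustment, and the mean of all tested probes of the gene, with a change of 0.40 (limma adjusted p 0.356).

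The other 2 Ezh1 probes were assigned by the array design to another transcript (ENSMUST00000100417) and were dim. A_55_P2731246 (chr11:101059782-101059841) had 5.84, 5.93, 5.00 and 5.97 in controls and 4.92, 4.67 and 4.65 on silenced replicates 1 to 3, with no value on replicate 4. The computed change was -0.94 (SE 0.28, limma adjusted p 0.0444), but the probe reached well above background on 0 of the 8 arrays, so no fold is given, and it was called in 4 of 15 alternatives. A_55_P2017090 (chr11:101058722-101058781) ranged from 4.42 to 6.04 on 3 control arrays and from 4.30 to 7.07 on 4 silenced arrays, with a change of 0.72 (95% interval -0.75 to 2.19, limma adjusted p 0.469) that was 0.26 without silenced replicate 3 and 1.18 without silenced replicate 4. It was well above background on 1 silenced array and on 0 control arrays.

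Ezh2 was measured by 5 probes, all well above background on all 8 arrays, and the change was negative for each of them, here and in every alternative run. From the 5′ to the 3′ end, the changes were -0.82, -0.50, -1.01, -0.91 and -0.37. The sizes depended on silenced replicate 4, without which the changes were -0.53, -0.20, -0.81, -0.89 and -0.19 in the same order, so that only the -0.91 probe was nearly as before. The probes at -1.01 and -0.91 were called lower. A_55_P2619322 (chr6:47494464-47494523) had 10.86, 11.05, 10.96 and 11.03 on control replicates 1 to 4. In silenced cells it was 10.13, 10.27, 10.13 and 9.35. The groups did not overlap, and silenced replicate 4 was well under the other silenced arrays. The fall left 0.498 of the control level (SE 0.24 on the log2 scale, 95% interval -1.53 to -0.48, limma adjusted p 0.0145).

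A_51_P248067, on the 3′ side of it, had 11.46, 11.58, 11.89 and 11.71 in controls and 10.86, 10.90, 10.55 and 10.69 in silenced cells. Here silenced replicate 4 was among the others and the groups again did not overlap. The signal fell to 0.532 of the control level (SE 0.19 on the log2 scale, 95% interval -1.34 to -0.48, limma adjusted p 0.00919). Relative to the median of all probes, the changes of the called Ezh2 probes were -0.81 and -0.72. Both calls ended with the slide row as a block (-0.97, limma adjusted p 0.0735, and -0.89, limma adjusted p 0.0572) and under the Bonferroni adjustment, and held in 17 of 19 alternatives each. Within the upper and the lower row the changes were -0.82 and -1.12 for A_55_P2619322, and -0.78 and -1.0 for A_51_P248067.

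The remaining Ezh2 probes were not called. The most 5′ probe, A_55_P2619337, had 10.7, 11.09, 10.95 and 11.03 in controls. In silenced cells it had 10.33, 10.18, 10.75 and 9.21, and only silenced replicate 3 reached into the control range. Its limma adjusted p was 0.0853 and it passed the threshold in 7 of 19 alternatives. A_55_P2619332 had 10.76 to 11.01 in controls and a mean of 10.43 ± 0.64 (SD, n = 4) in silenced cells, down to 9.52 on replicate 4 (95% interval of the change -1.19 to 0.18, limma adjusted p 0.269). The brightest and most 3′ probe, A_55_P2041397, had 11.35, 11.33, 11.99 and 11.59 in controls and 11.42, 11.14, 11.55 and 10.67 in silenced cells. These overlapped, and the change of -0.37 (95% interval -0.94 to 0.20, limma adjusted p 0.334) was called in 0 of 20 alternatives.

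**Figure D2:**
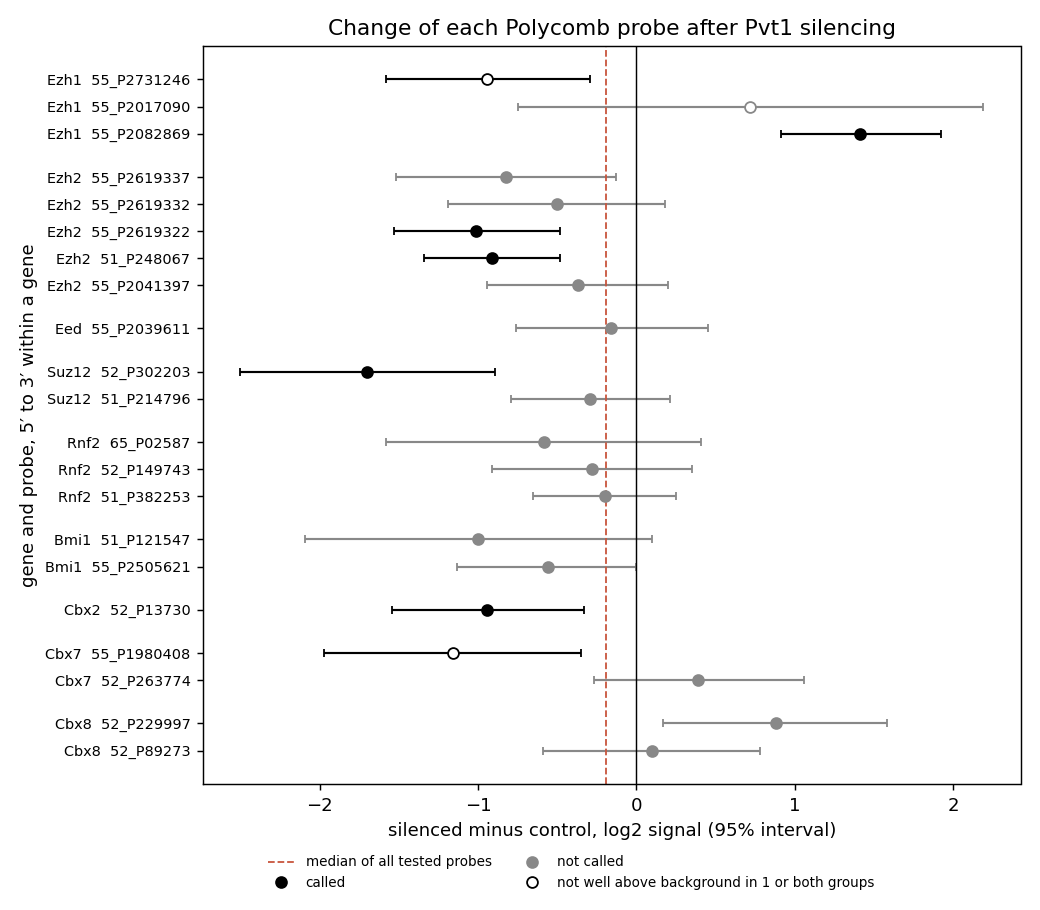
Change of each tested member probe after Pvt1 silencing (x axis, silenced minus control, log2 signal) with its 95% interval, in order of gene and from 5′ to 3′ within a gene (y axis). Black points were called, grey points were not, open points never stood well above background in 1 or both groups, and the dashed line is the median of all tested probes, -0.19. The Ezh1 3′ probe lies at 1.41 and all 5 Ezh2 probes lie between -1.01 and -0.37.

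Because both enzymes were read on the same arrays, the difference between the Ezh1 3′ probe and each Ezh2 probe was taken within an array, a comparison chosen after the values were seen. The Ezh1 change exceeded the Ezh2 change by 2.24, 1.92, 2.42, 2.32 and 1.78 on the log2 scale for the Ezh2 probes from 5′ to 3′. For all 5 pairs the 4 silenced arrays lay above the 4 control arrays. As the Ezh1 probe was already known to be higher and the Ezh2 probes lower, this is a description and no test was made. The SD of the difference was 0.07 to 0.19 in controls and 0.14 to 0.42 in silenced cells. The pairs share the Ezh1 probe. With the brightest Ezh2 probe the difference lay between 1.71 and 1.89 over the alternatives run.

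**Figure D3:**
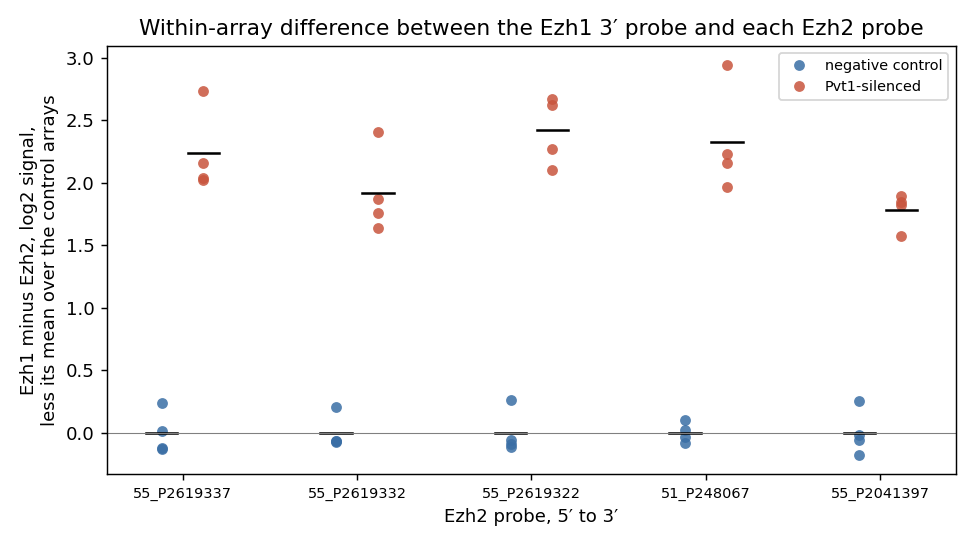
Within-array difference between the Ezh1 3′ probe and each of the 5 Ezh2 probes (x axis, 5′ to 3′), in log2 signal less the mean of the control arrays (y axis). Points are arrays, 4 per group, and lines are group means. The silenced means stand 1.78 to 2.42 above the control means, with no overlap at any Ezh2 probe.

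The 3 genes whose profile over the 8 arrays was most like that of the brightest Ezh2 probe were Tmem126a, Cdca7 and Wdr7. After each probe was centred on its mean, their root mean square differences from Ezh2 were 0.065, 0.071 and 0.074 on the log2 scale. Their changes were -0.43, -0.33 and -0.29.

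Of the core PRC2 partners, Eed, which binds the methylated histone tail, was read by 1 probe, A_55_P2039611 (NM_021876, chr7:97103264-97103323). Its log2 signal was 12.60, 12.59, 13.20 and 12.81 in controls and 12.80, 12.60, 13.14 and 12.04 in silenced cells. The groups overlapped almost wholly, and the lowest value was that of silenced replicate 4. The change was -0.16 (95% interval -0.76 to 0.45, limma adjusted p 0.722), and its sign turned under 3 alternatives, up to 0.04 without silenced replicate 4.

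Suz12, the scaffold of PRC2, was read by 3 probes, of which 2 were tested and 1 was called lower. A_52_P302203 (NM_199196, chr11:79826978-79827037, plus strand) had 9.18, 9.64, 8.85 and 10.58 on control replicates 1 to 4. On silenced replicates 1 to 4 it had 7.90, 7.99, 8.16 and 7.41. Every silenced array lay below every control array, although the control arrays were widely spread, with an SD of 0.75. The change of -1.70 (SE 0.36, 95% interval -2.50 to -0.89, limma adjusted p 0.00944) left 0.308 of the control level, was -1.50 relative to the median of all probes and was the most negative among the members. It was -1.32 within the upper row and -2.73 within the lower row of the slide, and -2.02 with the row as a block (limma adjusted p 0.0155). The call held in 18 of 19 alternatives, with Bonferroni adjustment as the exception.

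The 3′ probe of the same Suz12 transcript, A_51_P214796 (chr11:79847251-79847310), had 11.11, 11.29, 11.08 and 11.20 in controls and 10.97, 10.78, 11.32 and 10.43 in silenced cells. Silenced replicate 3 was higher than all controls, the other silenced arrays were lower than all of them, and the change of -0.29 was not called (95% interval -0.79 to 0.21, limma adjusted p 0.384), and was -0.15 without silenced replicate 4. The third probe, A_55_P2642951 (ENSMUST00000132312, chr11:79812947-79813006), was positive and significant on all 4 control arrays at 4.11 to 6.08 and on 0 silenced arrays, so it was not tested. It never stood well above background.

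In PRC1, the ubiquitin ligase Rnf2 was read by 3 probes of NM_011277 on chromosome 1, and none was called. From the 5′ to the 3′ end the changes were -0.58 (95% interval -1.58 to 0.41), -0.28 (-0.91 to 0.35) and -0.20 (-0.65 to 0.25). Single arrays moved them by over 1.5 times, with -0.97 and -0.46 for the first 2 without control replicate 3, -0.23 and -0.07 without silenced replicate 4, and -0.31 and -0.13 for the most 3′ probe without control replicate 3 and 4. On the most 3′ probe, A_51_P382253, the control arrays had 10.85, 11.08, 10.56 and 11.12 and the silenced arrays 10.82, 10.75, 10.72 and 10.50. The control range covered all silenced arrays but replicate 4, which was just under it. The sign of the middle probe turned with loess, with the series table of the authors and without masking of dim spots, and that of A_51_P382253 without masking. The 5′ probe A_65_P02587 was well above background on 3 control and 2 silenced arrays.

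Bmi1, which stimulates the ligase activity of Rnf2, was lower in the mean on both of its probes, and neither was called. The brighter, A_55_P2505621 (NM_007552, chr2:18607402-18607461), had 12.09, 12.46, 11.58 and 12.24 in controls and 11.48, 11.62, 11.88 and 11.15 in silenced cells. The overlap came from control replicate 3. The change was -0.56 (SE 0.25, limma adjusted p 0.138), and without control replicate 3 it was -0.73 (limma adjusted p 0.0457). The 5′ probe, A_51_P121547 (chr2:18605306-18605365), had 8.01, 8.64, 6.22 and 8.41 in controls and 6.23, 7.10, 6.82 and 7.14 in silenced cells, with control replicate 3 again the lowest control. Its change was -1.0 (95% interval -2.09 to 0.10, limma adjusted p 0.174), or -1.52 without control replicate 3 (limma adjusted p 0.00500). In no other alternative run was a Bmi1 probe called, except A_51_P121547 with the stricter filter on dim spots (-1.45, limma adjusted p 0.00289).

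The Cbx proteins compete for the same place in PRC1. Cbx2, the Cbx subunit able to compact chromatin, was read by 1 probe, A_52_P13730 (NM_007623, chr11:118892363-118892422). On control replicates 1 to 4 it had 10.08, 10.34, 11.26 and 10.35, and on silenced replicates 1 to 4 it had 9.61, 9.81, 9.49 and 9.38. The groups did not overlap, and control replicate 3 was the highest. The signal fell by 0.94 on the log2 scale, to 0.523 of the control level (SE 0.27, limma adjusted p 0.0341), or -0.74 relative to the median of all probes. The call held in 10 of 20 alternatives and ended with the slide row as a block (-0.87, limma adjusted p 0.135), with the series table of the authors (-0.69, limma adjusted p 0.139), without masking, with the replicate number as a block, in both forms of the methods' t-test, and without any 1 of control replicates 2 and 4 and silenced replicates 1 and 3. Without control replicate 3 the change was -0.68. Within the upper and the lower row it was -0.95 and -0.79.

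Cbx7 had 2 probes with changes of opposite sign. The brighter and more 3′, A_52_P263774 (NM_144811, chr15:79746268-79746327), had 7.95, 7.92, 8.65 and 8.10 in controls and 8.91, 8.68, 8.84 and 7.77 in silenced cells. Of the silenced arrays 3 were above all controls and replicate 4 was below all of them. The change of 0.39 was not called (95% interval -0.27 to 1.06, limma adjusted p 0.377), but with loess it was 0.74 (limma adjusted p 0.00863) and without silenced replicate 4 it was 0.66 (limma adjusted p 0.0481). A_55_P1980408 (ENSMUST00000109615, chr15:79748605-79748664), which the design gives to another transcript, had 5.03, 6.77, 6.45 and 6.43 in controls and 4.95, 5.21, 5.22 and 4.67 in silenced cells. Its computed change was -1.16 (limma adjusted p 0.0451), called in 4 of 18 alternatives. As it was well above background on 3 control arrays and on 0 silenced arrays, and its control mean lay at the background limit of the silenced arrays, no fold is given.

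Cbx8, which lies next to Cbx2 on chromosome 11 and on the opposite strand, had changes above 0 on both probes, neither of them called. A_52_P229997 (NM_013926, chr11:118899777-118899836) had 7.33, 7.30, 8.32 and 7.53 in controls and 8.75, 8.77, 8.69 and 7.77 in silenced cells. Of the silenced arrays 3 were above all controls, and replicate 4 was below control replicate 3. The change was 0.88 (95% interval 0.17 to 1.58, limma adjusted p 0.0724), which did not pass the threshold, although it did in 6 of 19 alternatives, with 1.13 without silenced replicate 4 (limma adjusted p 0.0155). The 3′ probe, A_52_P89273 (ENSMUST00000026663, chr11:118897653-118897712), ranged from 8.48 to 9.43 on control and from 8.22 to 9.38 in silenced cells. Its change of 0.10 (95% interval -0.59 to 0.78, limma adjusted p 0.853) took the other sign in 3 alternatives.

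The probes of 1 gene were then compared with each other, since they share a target. For the 7 member genes with 2 or more tested probes, the difference between the most 5′ and the most 3′ probe was taken on each array and compared between groups. In 5 of them both probes stood well above background on at least 1 array of each group, and these were tested, a restriction chosen after the values were seen. The difference changed by -1.40 in Suz12 and by 0.78 in Cbx8, with no overlap between groups. Both had a p of 0.0286 in the exact permutation test (two-sided), a floor that 4 against 4 arrays cannot go below, and 0.0714 after Benjamini-Hochberg adjustment over the 5, which did not pass the threshold. For Ezh2 (-0.46), Rnf2 (-0.38) and Bmi1 (-0.43) the groups overlapped and the adjusted values from the same permutation tests were 0.143, 0.429 and 0.429. In Ezh1 and Cbx7 the 5′ probe stood well above background on 0 silenced arrays, so no size is given and no test was made. In Ezh1, Cbx7 and Cbx8 the design assigned the 2 probes to different transcripts.

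Such a difference was not particular to Polycomb genes. The 5′ probe moved down relative to the 3′ probe in 6 of the 7 member genes (85.7%) and in 4409 of 6262 genes with at least 2 tested probes (70.4%). The members include Ezh1 and Cbx7, and without them it was 4 of 5. The median shift was -0.46 over the members (-0.79 without control replicate 3 and -0.33 without control replicate 2) and -0.43 over all these genes. The median 5′ minus 3′ difference of all these genes was -1.87 ± 0.14 in controls and -2.36 ± 0.10 in silenced cells (SD, n = 4 each, exact two-sided permutation p 0.0286), without overlap. The called falls of Ezh2 and Suz12 came from probes upstream of the most 3′ probe, while the called rise of Ezh1 came from its most 3′ probe, and the part of probe position in these calls was not tested.

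Other genes of the pathway were read from lists made by name, each gene by its brightest probe, beside 6.45% of all genes called higher and 13.4% lower. Of 8 accessory subunits of PRC2, 0 were called higher and 2 lower, with a median of -0.64. Phf19 (-1.21, SE 0.23, limma adjusted p 0.00566) and Phf1 (-0.85, SE 0.21, limma adjusted p 0.0194) encode Polycomb-like proteins that help PRC2 to bind chromatin. Phf19 was called in 18 of 19 alternatives and Phf1 in 13, with its call lost under both blocks, without masking, without control replicate 2 or 4, and under the Bonferroni adjustment. Of 16 further PRC1 subunits 0 were higher and 3 lower, with a median of -0.37. Among the 3 called genes the largest fall was in Ring1 (-1.66, SE 0.23, limma adjusted p 0.00136), the paralog of Rnf2. Scmh1 (-0.73, SE 0.23, limma adjusted p 0.0458) and Pcgf6 (-0.68) followed. Ring1 was called in 18 of 19 alternatives, Pcgf6 in 9 and Scmh1 in 6. Of these 3, only Ring1 stayed called under either block (slide row: -1.66, limma adjusted p 0.0116) or without any 1 of the control arrays. In this list, higher calls appeared under other processing, with L3mbtl2 and Phc2 higher and 3 genes lower with loess, and both higher and 2 genes lower with the series table and without masking. With the 75th percentile 0 were higher and 6 lower, and with the stricter filter 0 and 5. Summed linear signal of the list, taken without masking, was 54314 to 56480 in controls and 61997 to 66244 in silenced cells. For Ring1 the control arrays had 9.43 to 9.94 and the silenced arrays 7.73 to 8.48.

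Of 7 enzymes and cofactors that remove Polycomb marks 3 were lower and 0 higher, with a median of -0.32. Both demethylases of the lysine that PRC2 methylates fell, Kdm6a by 1.5 and Kdm6b by 1.27 on the log2 scale (limma adjusted p 0.00756 and 0.00298), although the Kdm6a probe was well above background on 2 of 4 silenced arrays. The third was Bap1 (-0.91), a deubiquitinase of histone H2A, whose call ended under the Bonferroni adjustment and when the slide row was blocked.

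**Figure D4:**
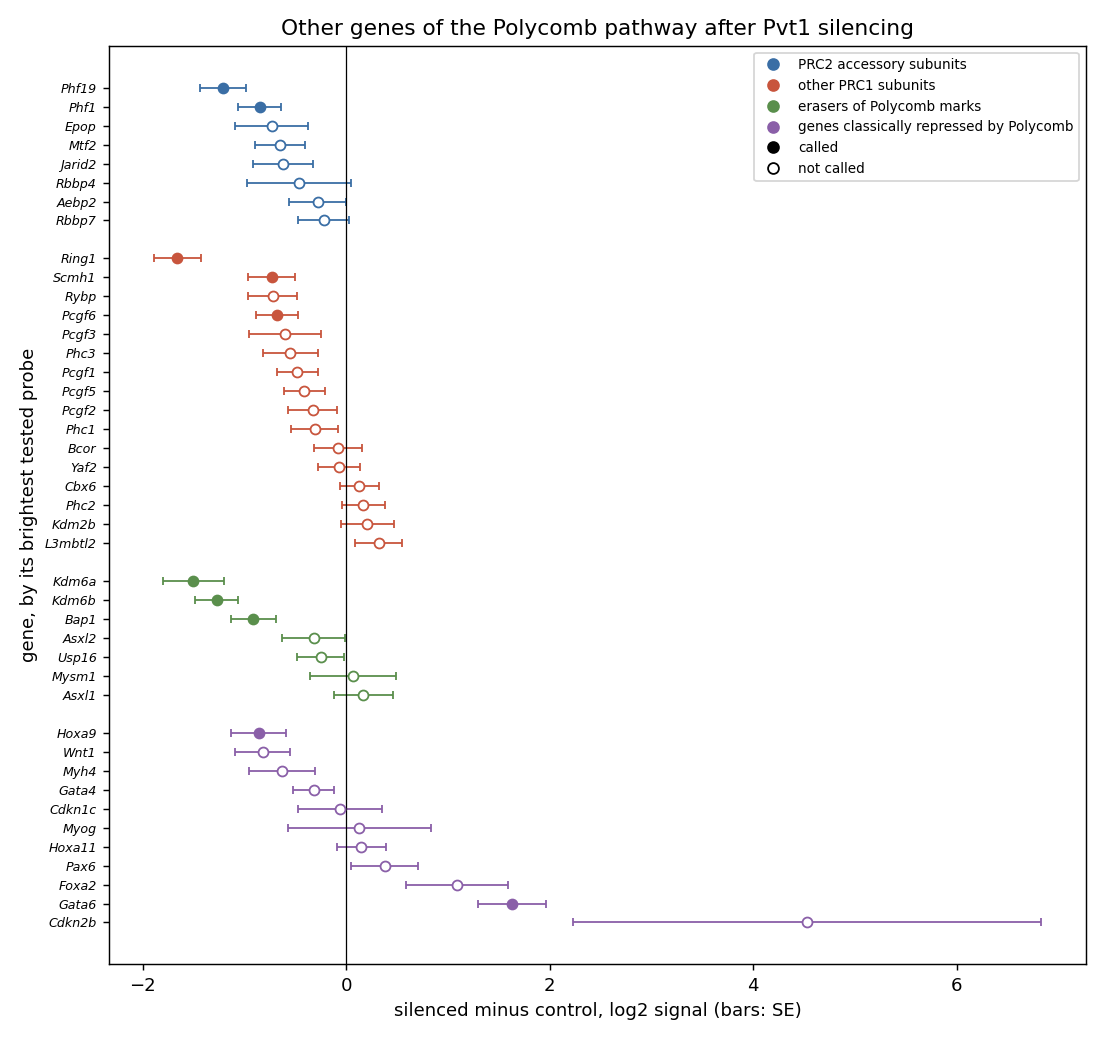
Change of 42 other genes of the Polycomb pathway (x axis, silenced minus control, log2 signal, bars are SE), by list and in order of change within a list (y axis). Filled points were called and open points were not. In the first 3 lists all 8 called genes lie below 0 in the processing plotted, masking and quantile normalization, from Ring1 at -1.66 to Pcgf6 at -0.68. With loess, with the series table and without masking, 2 PRC1 genes were called higher. In the list of genes classically repressed by Polycomb, Gata6 lies at 1.63, Hoxa9 at -0.86 and Cdkn2b, not called, at 4.53.

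Of 20 genes classically kept silent by Polycomb, 11 could be tested and the others had too few values. In control cells 12 of the 20 stood well above background on at least 1 array. Hoxa9, Hoxa11, Gata4, Wnt1 and Foxa2 did so on all 4 control arrays, and Myog and Cdkn1c on 3. This list is thus not a set of genes silent in these cells. Among the 11 tested genes the median change was 0.13, with 1 called higher and 1 lower. The split was 0 higher and 2 lower with normexp and with the stricter filter (Wnt1 added), 2 and 1 with loess and without silenced replicate 4 (Foxa2 added), and 0 and 0 without control replicate 2 or 4. Gata6, an endoderm factor, had a computed change of 1.63 (SE 0.33, limma adjusted p 0.00892), but its probe was well above background on 1 control and 1 silenced array. The Gata6 call ended with normexp and under the Bonferroni adjustment, and held in the other 13 of 15 alternatives that could test it. Hoxa9 had a change of -0.86 (SE 0.27, limma adjusted p 0.0470). Its call held in 9 of 19 alternatives and ended under both blocks, in both forms of the methods' t-test, and without any 1 of the control arrays or of silenced replicates 1 and 2. Among the muscle genes of this list, Myog (0.13, SE 0.70) was not called and Myh4 (-0.63) was well above background on 1 control array only, while Ckm had too few values to be tested. Of the cell cycle inhibitors Cdkn2a had too few values to be tested. The Cdkn2b probe was well above background on 0 control and 2 silenced arrays. Its computed change of 4.53 (SE 2.3) was the largest in this list but was not called (limma adjusted p 0.199). All silenced values lay above all control values but were widely spread, with means of 9.16 ± 5.48 in silenced cells and 4.63 ± 0.66 in controls (SD). Not every array had a value, so no fold is given.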

How the data were processed

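Per the file headers, Feature Extraction 12.0.0.7 wrote the deposited spot intensity on a linear scale, background subtracted, whereas the labels and the study's methods name version 10.7.3.1. Detection flags of 0 or 1 (positive and significant, well above background) were taken from the same deposited files. The series table that the authors deposited holds intensity values comparable between arrays and was used as an alternative. Spots not positive and significant were set to missing, arrays were quantile normalized, and spots of one probe were averaged, as in the study's methods. Before normalization log2 was taken of the deposited intensity, a step that those methods do not state. Control and outlier spots were also left out. Probes with at least 3 of 4 values per group entered a linear model of group alone (lmFit, eBayes) in limma 3.58.1 under R 4.3.3, and p-values were adjusted by Benjamini-Hochberg over 28649 probes at 0.05. The number of arrays limits the precision. Single values were compared by exact two-sided permutation tests.

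Gene names and mm9 coordinates are those of the array design, and the brightest probe over 8 arrays, by its mean, stood for a gene. Every member probe was named, with Pvt1, in each pathway list up to 2 called genes with the largest change per direction, the 3 genes most like Ezh2, and the cell type markers. Pcgf6, L3mbtl2, Phc2, Foxa2, Wnt1, Hoxa11, Gata4, Bap1, Myog, Myh4, Ckm, Cdkn1c, Cdkn2a and Cdkn2b were named after their values were seen. Epop is listed as E130012A19Rik on the array. In the list of further PRC1 subunits, 1 gene is not reported here and is left out of its counts. Members and lists were chosen with earlier results of these data known. Alternatives concerned the scaling (cyclic loess, or shifting each array to its 75th percentile), the background (normexp, offset 50), the source of the values (series table), dim spots (a stricter filter, or none), blocks (replicate number, or row of the slide), the prior (robust and trended), single arrays (each left out in turn), the test (the methods' t-test) and the probes (mean of all tested probes of a gene). The t-test with Bonferroni adjustment is one that the study's methods give for fast against slow fibers, with p-values by permutation. It was run here on the silenced and control arrays with equal variances and without permutation, and Benjamini-Hochberg adjustment was added. For coding genes on the silenced and control arrays, the study reports a two-tailed t-test with unequal variance, which was not run here. The fit was tested on simulated data.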

Additional observations from a re-analysis of the deposited data

Results flagged for a closer look

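Dixon's criterion was applied to each group of 4 values, 40 from member probes and 2 from the brightest Pvt1 probe, that is, the distance of the extreme array from the next one as a share of the whole spread. It was met in 6 of 42 groups, while about 1 in 20 would be met by chance. Silenced replicate 4, the array with the smallest share of positive and significant spots, was low for 3 probes. The log2 signal was 9.35 on it against 10.13 to 10.27 on the other silenced arrays for Ezh2 A_55_P2619322, 4.95 against 6.27 to 6.41 for Rnf2 A_65_P02587, and 7.77 against 8.69 to 8.77 for Cbx8 A_52_P229997. Without it the change of this Ezh2 probe was -0.81. Control replicate 3 was low for Ezh1 A_55_P2731246, at 5.00 against 5.84 to 5.97 on the other controls, and for Rnf2 A_65_P02587, at 5.41 against 6.89 to 7.04. Control replicate 1 was low for Ezh2 A_55_P2619332, at 10.76 against 10.97 to 11.01.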

How the results depend on the processing

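The 6642 probes called over the whole array became 10674 with cyclic loess, 3106 with a block for the slide row and 15 with the methods' t-test and Bonferroni adjustment, and 3709 to 8758 when 1 array was left out (lowest without control replicate 4, highest without silenced replicate 4). Of the member probes 7 were called, 2 with a block for the slide row, 4 with the methods' t-test and Benjamini-Hochberg adjustment, 0 with Bonferroni, and 4 to 9 when 1 array was left out (4 without control replicate 2 or 4 or silenced replicate 1). Of the member genes 2 were called, 1 with the replicate block, 1 with the slide row, 1 with the t-test and Benjamini-Hochberg, 0 with Bonferroni, and 1 to 3 when 1 array was left out. Of the pathway genes 10 were called (1 higher, 9 lower). The counts were 15 with the 75th percentile (1 higher, 14 lower), 14 with loess (4 and 10), 12 with the series table (3 and 9), 11 without masking (3 and 8), 6 with the replicate block, 5 with the slide row, 0 with Bonferroni, and 5 to 10 when 1 array was left out. The median change of the member probes lay between -0.58 and -0.20 when 1 array was left out (-0.20 without silenced replicate 4). For the member genes the median shift of 5′ against 3′ probes lay between -0.79 (without control replicate 3) and -0.33 (without control replicate 2). Pvt1 stayed at -2.86 but was not past Bonferroni adjustment (adjusted p 1.00), and lay between -3.12 and -2.69 when 1 array was left out. Signs turned only in probes that were not called: Cbx8 A_52_P89273 (-0.02 with the 75th percentile, -0.02 without control replicate 1, -0.05 without silenced replicate 3, and up to 0.34 without silenced replicate 4), Eed (0.02 with loess, 0.01 without masking, 0.04 without silenced replicate 4, and down to -0.32 without silenced replicate 3), Rnf2 A_52_P149743 (0.04 with loess, 0.02 with the series table, 0.02 without masking), Rnf2 A_51_P382253 (0.00 without masking) and Cbx7 (-0.38 for the mean of its probes against 0.39). Calls were gained in members as well: loess, the series table and no masking each gave 3 higher calls among the member probes. Replicate numbers gave no clear pairing of the samples. Correlations of same-numbered deviations were -0.04, 0.19, 0.22 and 0.06, and 2 of 4 controls matched their own number best. With 4 replicates these values cannot exclude pairing. With the replicate block 5 of the member probes were called, and Cbx2 had a limma adjusted p of 0.0626. The causes of these differences were not tested. The number of arrays and the dim signal of 3 tested member probes limit what can be read.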
